A study of Mus musculus with 4 samples.

Results

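Potassium channel genes, taken as every gene whose symbol starts with Kcn, were compared between mouse prefrontal cortex under repeated social threat and control cortex. On the Affymetrix MOE430 2.0 array, 167 probe sets carried exactly 1 gene symbol of this kind. They measured 84 genes of the 18193 genes with such a probe set. Each gene was read by the brightest of its probe sets, by the mean over the 4 arrays. The genes comprised 81 for channel subunits and their partner proteins and 3 noncoding transcripts named after a channel gene.

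Each array held total RNA pooled from the prefrontal cortex of 5 mice. The 2 threat pools came from mice under repeated social threat, labelled HighThreat, and the 2 control pools from mice labelled LowThreat. The sources used here do not give strain, age or sex of the mice, or the form of the threat. A pool averages its animals, so differences between pools say little about differences between mice. Nothing says how the pools were drawn. The p-values measure only spread between these pools, of all probe sets as well as the gene's own, and that spread may be technical. Markers of cortical neurons were above background in every pool. None passed the adjusted test, but the groups of some did not overlap. Of 7 excitatory neuron markers, 1 lay higher in both threat pools (Slc17a7, 0.23 on the log2 scale, threat minus control) and 2 lower in both (Tbr1, -0.53, and Neurod6, -0.39). These are 14.3% and 28.6%, against 26.2% and 18.8% of all genes. The summed level (log2 of the sum) was 13.53 and 13.86 in control and 13.64 and 13.72 in threat. Of 8 interneuron markers, 1 lay higher (Lhx6, 0.26) and 2 lower (Gad1, -0.42, and Gad2, -0.28), 12.5% and 25% against the same shares of all genes. Their summed level was 13.89 and 13.73 in control and 13.78 and 13.57 in threat. The part of these cells in the values of the channel genes was not tested.

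A potassium channel is a pore through which potassium crosses the membrane along its gradient. The voltage-gated families open on depolarisation, end the action potential and limit repetitive firing. The inward rectifiers (Kcnj) hold the resting potential and pass the slow inhibition evoked by many transmitters, while the 2-pore-domain channels (Kcnk) carry the leak current at rest. Kcnm, Kcnn and Kcnt channels respond to intracellular calcium or sodium. Most of these genes are known from neurons, Kcnj10 and Kcnj16 also from glia, Kcnk13 from microglia and Kcnj8 from pericytes.

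Most potassium channel genes lay close to their control level under threat. None passed limma's test at 0.05 after adjustment across all probe sets, and neither did any other gene (0% of 18193). The smallest adjusted p among the members was 0.423. An unadjusted p under 0.05 was found for 8 members, 9.52%, against 10.7% of all genes. Of these, 4 were higher and 4 lower, where 4.9% and 5.76% of all genes were. Both threat pools lay above both control pools, called separate and higher below, in 20 members or 23.8%, against 26.2% of all genes. Both lay below in 14 members or 16.7%, against 18.8%. The shares of the members were a little under those of all genes in each of these counts.

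The median log2 difference, threat minus control, was 0.04 over the members and 0.02 over all genes. Of the members, 51 lay above 0 and 33 below. A log2 difference of at least 0.32 in either direction, with or without separate pools, was found for 8 members, 9.52%, against 8.02% of all genes. The balance of 20 separate members higher and 14 lower depended on the scaling of the arrays. It was 29 and 12 after centring each array on its median, and 16 and 16 after cyclic loess. The median difference over all probe sets moved too, from 0.0152 to 0.0511 after median centring and 0.0064 after cyclic loess. Shares over all genes were not counted under these scalings, here or for the families below.

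Background was read from 27 control probe sets for Bacillus transcripts, which match no mouse RNA and reached at most 4.25 (log2). The mean of 12 members was at or below that value: Kcne2, Kcne3, Kcnh8, Kcnj1, Kcnj2, Kcnj5, Kcnj14, Kcnj15, Kcnk15, Kcnmb1, Kcnmb4os1 and Kcnv2. All pools were at or below it in 8 of them, and no fold is given for any. Nearest the limit were Kcnmb4os1, with a mean of 4.21, inside it, and Kcng4, with 4.32, outside. Of the other 72 members, 17 were separate and higher and 12 lower, 23.6% and 16.7%, against 28.7% and 18.3% of all genes above that value.

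**Figure D1:**
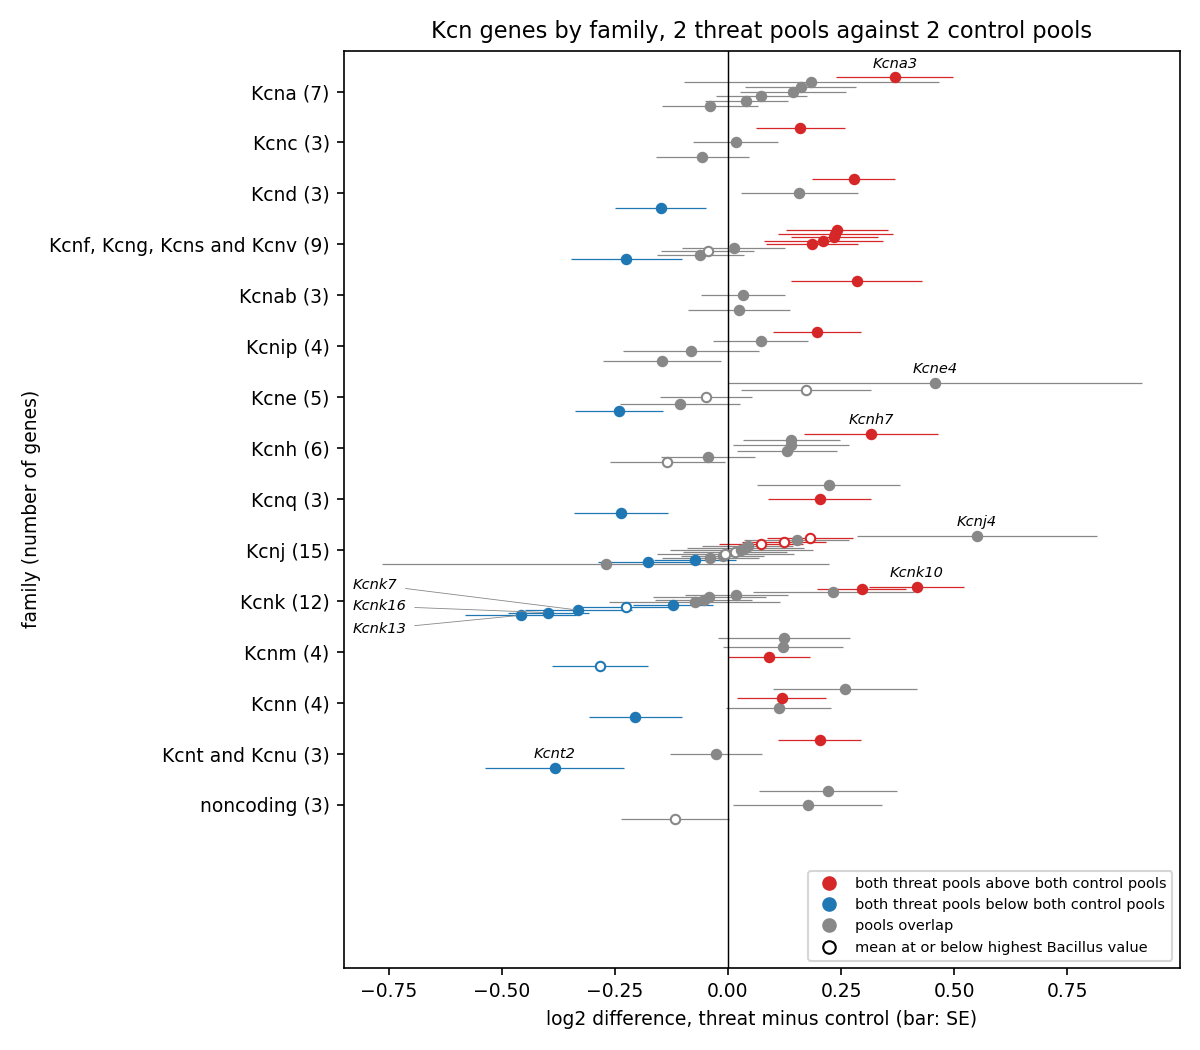
Log2 difference, threat minus control, of each of the 84 Kcn genes by family, with limma's standard error as bars; colour marks separate pools, and open points have a mean at or below the highest Bacillus value. Points of most families lie on both sides of 0, from -0.46 for Kcnk13 to 0.55 for Kcnj4.

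The 2-pore-domain family (Kcnk) held 5 of the 8 members with an unadjusted p under 0.05, 41.7% of its 12 genes, against 10.7% of all genes. No test of this concentration was made, and none of the 5 passed after adjustment. They lay in opposite directions: Kcnk13, Kcnk16 and Kcnk7 were lower in both threat pools, and Kcnk10 and Kcnk12 higher in both. Kcnk16 and Kcnk7, with means of 5.04 and 5.47, were dimmer than the median probe set. Of the family, 5 genes were separate and lower, Kcnk15 at background among them, and 2 higher, 41.7% and 16.7% against 18.8% and 26.2% of all genes, with a median of -0.06. These counts were the same after cyclic loess and after median centring.

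Kcnk13 and Kcnk12 encode the THIK channels, paired leak channels of which Kcnk13 is inhibited by halothane. The 250 bases before the listed start of each are shown, because these related genes lay apart in opposite directions. They are from RefSeq (GRCm38.p6), 5′ to 3′ on the strand of the gene, at chr17:87797995-87798244 on the minus strand for Kcnk12 and chr12:99964249-99964498 on the plus strand for Kcnk13. Capitals mark a GC box (GGGCGG on either strand), the one match among 5 motifs searched on both strands. The others were the CCAAT box (CCAAT), the cAMP response element (TGACGTCA), the E-box (CACGTG) and the TATA box (TATAAA), and no letter belonged to more than 1 motif.
Kcnk12: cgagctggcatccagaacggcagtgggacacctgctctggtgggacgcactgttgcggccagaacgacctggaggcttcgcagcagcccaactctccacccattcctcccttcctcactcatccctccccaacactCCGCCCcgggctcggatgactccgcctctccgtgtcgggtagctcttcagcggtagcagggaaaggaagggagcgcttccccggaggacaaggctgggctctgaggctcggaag
Kcnk13: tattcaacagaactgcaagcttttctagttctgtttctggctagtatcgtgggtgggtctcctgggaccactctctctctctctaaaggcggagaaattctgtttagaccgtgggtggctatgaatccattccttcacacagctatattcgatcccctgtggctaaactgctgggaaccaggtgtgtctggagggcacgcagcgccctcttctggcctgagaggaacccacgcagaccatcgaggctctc
The Kcnk12 sequence held 1 GC box, 64.8% G or C and 16 CpG dinucleotides. The Kcnk13 sequence held none of the motifs, 52.8% G or C and 8 CpG. Over all 32851 listed starts the medians were 52.4% and 6 CpG. A GC box was found at 32.7% of all starts, a CCAAT box at 33.8%, a cAMP response element at 1.55%, an E-box at 6.02% and a TATA box at 12.4%. Of the 89 starts listed for 64 members, 44.9% held a GC box, 30.3% a CCAAT box, 0% a cAMP response element, 5.62% an E-box and 3.37% a TATA box, with a median of 58.8% G or C. These are matches of letters only.

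Kcnk13 (probe set 1424125_at) measured 6.87 and 6.60 in control and 6.24 and 6.31 in threat (log2). Both threat pools were lower than both control pools. The log2 difference was -0.46 ± 0.12 (SE), 1.37-fold lower, with limma's adjusted p at 0.431, and it was -0.32 without control pool 1. Kcnk12 (1441280_at) measured 6.86 and 6.75 in control and 7.15 and 7.05 in threat. Its groups did not overlap, with a difference of 0.30 ± 0.10 (1.23-fold higher, limma's adjusted p = 0.448).

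Beside Kcnk13, a known microglial gene, stand the values of 8 microglial markers. Of these, 7 lay below 0, and 3 were separate and lower, 37.5% against 18.8% of all genes. The median of the 8 was -0.11. Their summed level was 13.13 and 13.01 in control and 12.83 and 12.998 in threat, and none was at background. P2ry12 (-0.01) and Tmem119 (0.04), which define microglia in brain, overlapped between groups, while C1qa (-0.33), C1qb (-0.29) and Cx3cr1 (-0.19) were separate and lower. The part of these cells in the value of Kcnk13 was not tested. In RNA of whole tissue, fewer cells of a type and less RNA per cell cannot be told apart.

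Kcnk16 (1429913_at), known from pancreatic islets, had the smallest unadjusted p of the members. It measured 5.27 and 5.21 in control and 4.85 and 4.83 in threat, a difference of -0.40 ± 0.09 (1.32-fold lower, limma's adjusted p = 0.423). The pools of each group lay close together, and the groups were apart. Kcnk7 (1425437_a_at), for which no current of its own is known, measured 5.72 and 5.56 in control and 5.42 and 5.20 in threat, also without overlap (-0.33 ± 0.12, limma's adjusted p = 0.455).

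Kcnk10 and Kcnk2 encode TREK channels, which respond to stretch and lipids. Kcnk10 (1438088_at) measured 6.42 and 6.49 in control and 6.78 and 6.96 in threat, a separate difference of 0.42 ± 0.10 (1.34-fold higher, limma's adjusted p = 0.427). Its other probe set measured 5.07 and 4.99 in control and 5.16 and 4.96 in threat and overlapped (0.03), so the readings of this gene disagreed. Kcnk2 was at 9.56 and 9.58 in control and 9.44 and 9.46 in threat, separate and lower by a small amount (-0.12 ± 0.09). Kcnk1, a weakly rectifying leak channel, was at 11.27 and 11.12 against 11.28 and 11.02 and overlapped (-0.04, 95% interval -0.35 to 0.27).

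**Figure D2:**
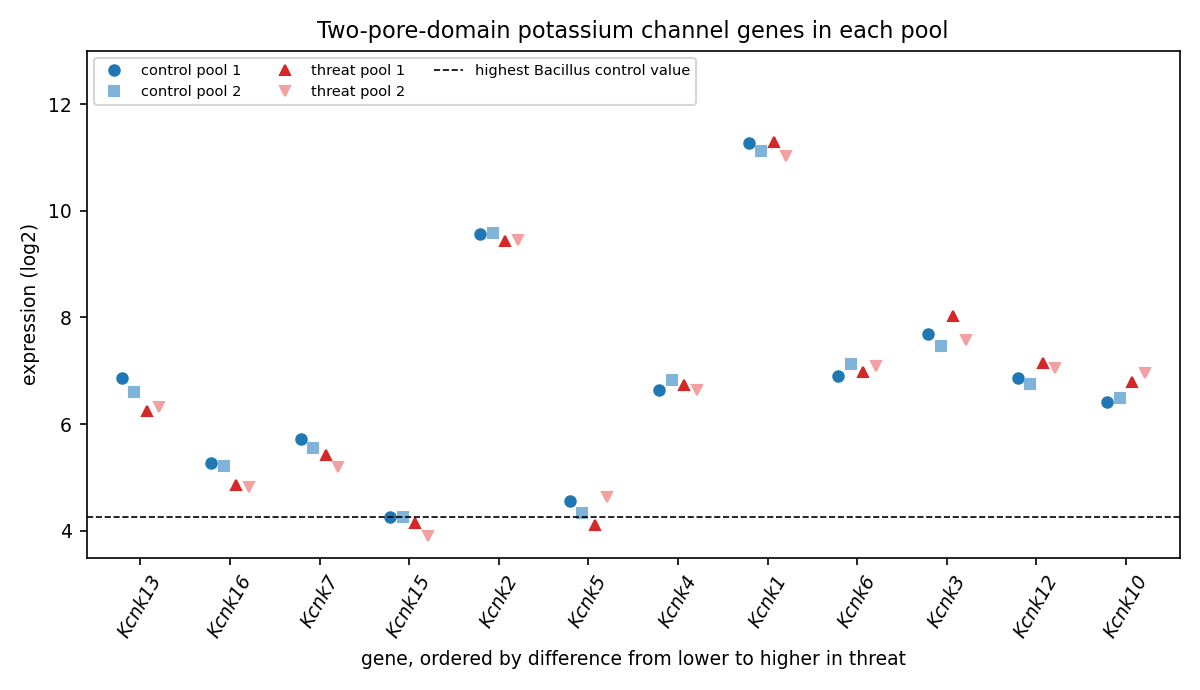
Log2 expression of the 12 Kcnk genes in each of the 4 pools, with control in blues and threat in reds, and the highest Bacillus value of 4.25 as a line. Control and threat lie apart in opposite directions at Kcnk13 and Kcnk12; heights of different genes come from different probes and are not comparable.

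Among the pore subunits of voltage-gated channels (Kcna, Kcnc, Kcnd, Kcnf, Kcng, Kcns, Kcnv, Kcnh and Kcnq), 22 of 31 lay above 0, 71.0% against 55.7% of all genes. The median was 0.14, and 10 were separate and higher, 32.3% against 26.2% of all genes, and 3 lower, 9.68% against 18.8%. After cyclic loess 19 of the 31 lay above 0, 61.3%, and the median was 0.07, with 7 higher and 3 lower, and after median centring 0.18, with 14 and 3. None passed the adjusted test, and 2 had an unadjusted p under 0.05, 6.45% against 10.7% of all genes.

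Kcna channels open at low voltages and restrain firing from the axon. Kcna3 (1423018_at) measured 6.71 and 6.74 in control and 6.93 and 7.25 in threat. Both threat pools were higher, though well apart from each other, with a difference of 0.37 ± 0.13 (1.29-fold, limma's adjusted p = 0.452), or 0.21 without threat pool 2. Kcna1 was at 10.64 and 10.51 in control and 10.70 and 10.60 in threat (0.07, 95% interval -0.18 to 0.33). Kcna2 was at 10.07 and 10.12 against 10.10 and 10.17 (0.04, interval -0.19 to 0.27; -0.0049 after cyclic loess). These main axonal subunits overlapped between groups by the probe sets used. Another probe set of Kcna1, at 9.86 and 9.80 against 10.05 and 10.005, was separate and higher (0.19 ± 0.09), and a further one gave -0.05. The other probe sets of Kcna2 overlapped (0.23 and 0.10). Kcna4, which gives an inactivating current, was at 7.48 and 7.42 against 7.47 and 7.72 and overlapped too (0.14), while its other probe set, at 6.99 and 7.01 against 7.21 and 7.32, did not (0.26 ± 0.09).

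Kcnc channels close fast and let interneurons fire at high rates. Kcnc1 was at 9.42 and 9.37 in control and 9.46 and 9.36 in threat and overlapped (0.02, 95% interval -0.22 to 0.25; -0.0432 after cyclic loess). Of its other probe sets, 1 was separate and higher, at 8.69 and 9.02 against 9.17 and 9.10 (0.28 ± 0.13), and the others gave 0.0039 and 0.01. Kcnd channels carry the transient A-type current of dendrites. Kcnd1 (1455514_at) measured 6.66 and 6.62 in control and 6.95 and 6.88 in threat, a separate difference of 0.28 ± 0.09 (1.21-fold higher, limma's adjusted p = 0.446). Its other probe sets were separate in the same direction, at 0.24 and 0.15. Kcnd2 measured 10.64 and 10.66 in control and 10.58 and 10.42 in threat, lower in both threat pools (-0.15 ± 0.10, or -0.07 without threat pool 2 and -0.23 without threat pool 1). Of its other probe sets above background, 1 was separate and higher, at 9.32 and 9.43 against 9.64 and 9.47 (0.18 ± 0.11), and 1 overlapped (0.03). The readings of Kcnd2 thus lay apart in opposite directions.

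Kcnf, Kcng, Kcns and Kcnv encode electrically silent subunits, which form no channel alone and modify other voltage-gated subunits. Of 9, 5 were separate and higher, 55.6% against 26.2% of all genes, and 1 lower, 11.1% against 18.8%, with a median of 0.19. After cyclic loess these were 3 and 1. None had an unadjusted p under 0.05. Kcns1 measured 6.46 and 6.55 in control and 6.79 and 6.69 in threat (0.24 ± 0.10). Kcns2 measured 8.57 and 8.70 against 8.97 and 8.77 (0.24 ± 0.11, or 0.14 without threat pool 1), and its other probe set gave 0.03. Kcns3 measured 6.40 and 6.46 against 6.80 and 6.48 (0.21 ± 0.13). The margin of Kcns3 was narrow, and its difference was 0.05 without threat pool 1. A further probe set of Kcns3 was at 5.41 and 5.62 against 5.90 and 6.02, higher in both threat pools (0.44 ± 0.11).

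Kcnf1 was at 9.57 and 9.75 in control and 9.83 and 9.85 in threat (0.19 ± 0.10, or 0.10 without control pool 1), and its other probe set gave 0.25. Kcng1 was at 8.17 and 8.47 against 8.53 and 8.58 (0.24 ± 0.13, or 0.09 without control pool 1). In both genes control pool 2 was nearer to the threat pools than control pool 1 was. Kcng2 was the one silent subunit that was separate and lower, at 7.11 and 6.84 against 6.80 and 6.70 (-0.22 ± 0.12, or -0.09 without control pool 1).

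Kcnh channels are the ether-a-go-go family. Kcnh7 measured 6.14 and 6.26 in control and 6.33 and 6.71 in threat (0.32 ± 0.15, or 0.13 without threat pool 2). It was the one Kcnh gene with separate pools, threat pool 2 being the highest. Kcnh1 was at 9.43 and 9.56 against 9.71 and 9.54 and overlapped (0.13, and 0.10 by its other probe set). Kcnq channels carry the M current, which muscarinic receptors close. Kcnq5 measured 8.66 and 8.90 in control and 8.997 and 8.96 in threat (0.20 ± 0.11, or 0.08 without control pool 1), and its other probe set gave -0.04. Kcnq3 was at 9.91 and 10.34 against 10.39 and 10.31 and overlapped (0.22, or 0.01 without control pool 1), while its other probe set was separate and higher (0.19 ± 0.11). Control pool 1 was the low pool in both genes. Kcnq1, known from heart and epithelia, was separate and lower, at 5.000 and 5.09 against 4.89 and 4.73 (-0.24 ± 0.10, or -0.15 without threat pool 2).

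Among auxiliary subunits, Kcnab2, a cytoplasmic partner of Kcna channels, was at 10.58 and 10.48 in control and 10.57 and 10.55 in threat and overlapped (0.03; -0.0030 after cyclic loess). Its other probe set was separate and higher, at 9.39 and 9.17 against 9.46 and 9.50 (0.20 ± 0.11). Kcnab3 measured 6.34 and 5.95 against 6.44 and 6.41 (0.28 ± 0.14, or 0.09 without control pool 2), and its other probe set gave -0.09. Its separation rested on a narrow margin over control pool 1. Kcnip2, a calcium-binding partner of Kcnd channels, measured 9.68 and 9.56 against 9.78 and 9.85, separate and higher (0.20 ± 0.10), with 0.28 and -0.21 by its other probe sets. Kcne1, a small subunit known from heart and inner ear, was just above background at 4.58 and 4.49 against 4.34 and 4.24 (-0.24 ± 0.10), with threat pool 2 below the highest Bacillus value.

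**Figure D3:**
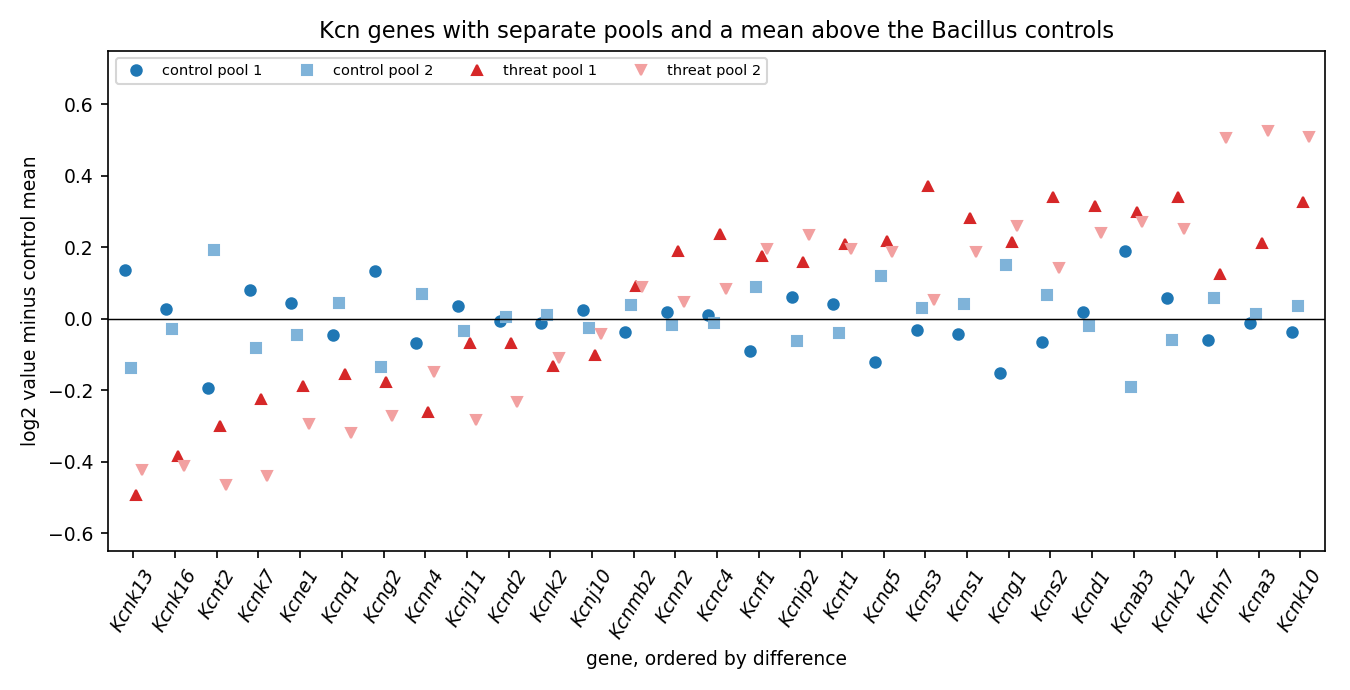
Log2 value in each pool minus the control mean (control in blues, threat in reds) for the Kcn genes with separate pools and a mean above the highest Bacillus value, 17 higher and 12 lower in threat. The distances between the groups range from narrow, as at Kcnj10, to wide, as at Kcnk16 and Kcnk10.

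Of the 15 inward rectifiers (Kcnj), 3 were separate and higher and 2 lower. These are 20% and 13.3%, against 26.2% and 18.8% of all genes, and none had an unadjusted p under 0.05. After cyclic loess these counts were 3 and 3, and after median centring 5 and 0. The 3 higher genes, Kcnj2, Kcnj14 and Kcnj15, were at background. Kcnj10, through which glia take up potassium, measured 9.28 and 9.23 in control and 9.15 and 9.21 in threat. The groups were apart by a narrow margin (-0.07, 95% interval -0.30 to 0.15; -0.04 without threat pool 1). Its partner Kcnj16 was at 7.78 and 7.69 against 7.61 and 7.79 and overlapped (-0.04, or 0.05 without threat pool 1).

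Beside Kcnj10 stand the markers of the glia it is known from. All 9 oligodendrocyte markers were separate and lower, 100% against 18.8% of all genes. Their median was -0.99, with a summed level of 14.63 and 14.29 in control and 13.48 and 13.76 in threat. Of 8 astrocyte markers, 6 lay below 0. Of the 8, 2 were separate and lower, 25% against 18.8% of all genes, and 1 separate and higher (Sox9, 0.03), 12.5% against 26.2%. The summed level of the 8 was 13.61 and 13.69 in control and 13.28 and 13.59 in threat. No marker of either list was at background, and none passed the adjusted test. The part of these cells in the value of Kcnj10 was not tested.

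Kcnj3, a subunit of the G-protein-gated channel of slow inhibition, was at 9.29 and 9.37 in control and 9.33 and 9.30 in threat and overlapped (-0.01, 95% interval -0.24 to 0.22; 0.0239 after median centring). Its other probe sets gave 0.17, with separate pools, -0.25 and 0.04. Kcnj11, the pore of the ATP-sensitive channel, measured 8.51 and 8.44 against 8.41 and 8.20, separate and lower (-0.18 ± 0.11, or -0.07 without threat pool 2), and its other probe set gave 0.01. Kcnj8, the vascular pore of that channel, was at 6.27 and 6.10 against 6.36 and 6.09 and overlapped (0.04).

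Of the calcium-activated channels, Kcnma1, the large-conductance pore, was at 9.28 and 9.67 in control and 9.63 and 9.56 in threat and overlapped (0.12, or -0.07 without control pool 1). Its other probe sets above background gave -0.15, with overlap, and -0.18, separate and lower. Its neuronal beta subunit Kcnmb4 was at 10.88 and 10.71 against 11.06 and 10.77 and overlapped (0.12, or -0.02 without threat pool 1). Kcnn2, which shapes the afterhyperpolarisation, was at 7.92 and 7.89 against 8.09 and 7.95, separate and higher by 0.12 ± 0.10, or by 0.05 without threat pool 1 and 0.19 without threat pool 2. Kcnn4, known from blood and immune cells, was separate and lower, at 5.69 and 5.83 against 5.50 and 5.61 (-0.20 ± 0.10, or -0.14 without control pool 2). Kcnmb1, the smooth muscle beta subunit, was the eighth member with an unadjusted p under 0.05 but was at background in all pools.

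The sodium-activated channels Kcnt1 (Slack) and Kcnt2 (Slick) lay in opposite directions. Kcnt1 measured 8.12 and 8.04 in control and 8.29 and 8.27 in threat (0.20 ± 0.09, limma's adjusted p = 0.494). Its other probe sets, at 0.16 and 0.33, were separate and higher too. Kcnt2 measured 8.21 and 8.59 against 8.10 and 7.93, lower in both threat pools (-0.38 ± 0.15, limma's adjusted p = 0.472; -0.19 without control pool 2). The difference between these genes was not tested.

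A further probe set above background was present for 37 members. The mean of the further probe sets had the sign of the one used in 29 of them, and in 9 of the 13 with separate pools. Kcnab3, Kcnd2, Kcnj11 and Kcnq5 were the 4 separate members whose further probe sets had the opposite sign. Kcnk13, Kcnk16, Kcnk12, Kcnk7 and Kcna3 had no further probe set above background.

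**Figure D4:**
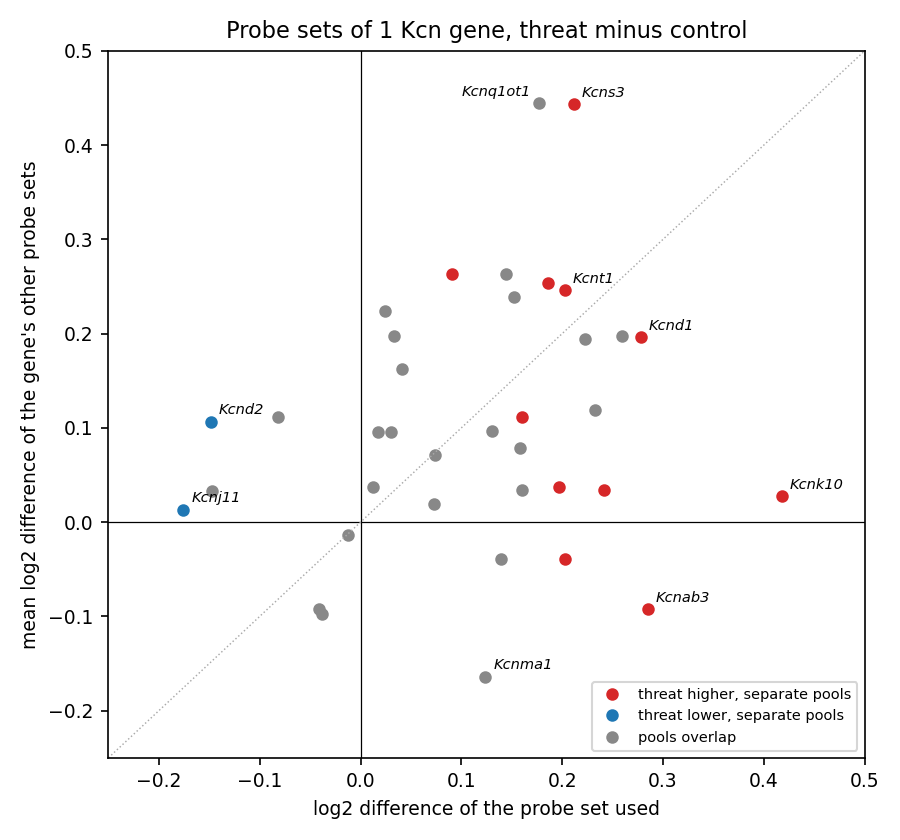
Log2 difference, threat minus control, of the probe set used against the mean of the other probe sets of the same gene above the highest Bacillus value, for 37 Kcn genes. Both have the same sign in 29 genes, and Kcnk10 lies at 0.42 by one and 0.03 by the other.

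In 5 members the pools of 1 group lay over 0.5 apart. Kcnj13, known from choroid plexus and pigment epithelium, measured 6.69 and 7.63 in control and 6.23 and 7.55 in threat. Kcne4, a small auxiliary subunit, measured 5.72 and 6.70 against 6.10 and 7.23. Pool 2 was the higher in both groups for both genes. Kcnj4, a rectifier of forebrain neurons, had the largest difference of the members, 0.55 ± 0.27 (1.46-fold), yet overlapped at 8.77 and 8.04 against 9.16 and 8.75. Kcna5 was at 6.61 and 5.72 against 6.33 and 6.36. Control pool 2 was the lowest for both Kcnj4 and Kcna5, and pool 1 was the higher in both groups for Kcnj4. Kcnk5, near background, was at 4.56 and 4.33 against 4.12 and 4.63.

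Markers of vessel cells also differed between pools of a group. The summed level of 8 mural markers was 12.07 and 12.80 in control and 11.65 and 11.90 in threat. Of these markers, 6 lay below 0, and 5 were separate and lower, 62.5% against 18.8% of all genes. The summed level of 7 endothelial markers was 9.98 and 10.40 against 9.68 and 9.96. All 7 lay below 0, and 4 were separate and lower, 57.1% against 18.8% of all genes. Neither list had a marker at background, and pool 2 was the higher in each group. The summed level of 7 choroid plexus markers was 9.48 and 8.0040 against 7.78 and 7.86, with Aqp1, Otx2 and Slc4a5 at background. In control its order was opposite to that of Kcnj13. The sum followed its brightest marker, Ttr, at 9.05 and 6.48 in control and 6.15 and 6.18 in threat. Of the other markers above background, Folr1 and Kl were higher in pool 2 of both groups, as Kcnj13 was. Clic6 was higher in pool 2 in threat only. The part of these cells in the values of Kcnj13 and Kcne4 was not tested. The summed level of 6 striatal neuron markers was 11.70 and 11.05 in control and 11.33 and 11.0004 in threat. Pool 1 was the higher in each group, as for Kcnj4. Of the 6, 5 lay below 0, and 1 was separate and lower, 16.7% against 18.8% of all genes. The part of striatal neurons in the value of Kcnj4 was not tested.

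**Figure D5:**
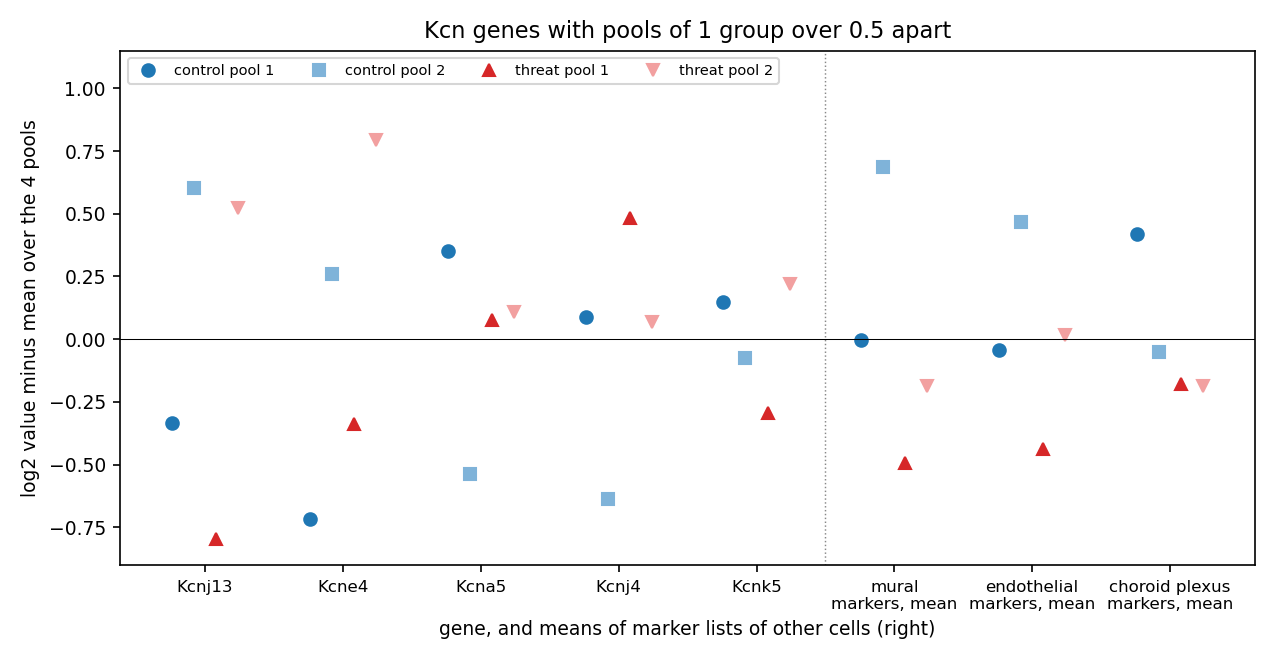
Log2 value in each pool relative to the mean over the pools for the 5 Kcn genes whose pools of 1 group lay over 0.5 apart, and for the means of the mural, endothelial and choroid plexus markers. Pool 2 lies above pool 1 in both groups for Kcnj13, Kcne4 and the mural and endothelial means.

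Channel partners outside the Kcn symbols came from a list of 24 genes, of which 21 were measured. None passed the adjusted test in limma, and 3 had an unadjusted p under 0.05, 14.3% against 10.7% of all genes. Of the measured genes, 14 lay above 0, 8 were separate and higher, 38.1% against 26.2% of all genes, and 2 were lower, 9.52% against 18.8%, with a median of 0.10. Abcc8, the sulfonylurea receptor joined to Kcnj11, measured 6.41 and 6.43 in control and 6.84 and 6.70 in threat (0.35 ± 0.10), the sign opposite to that of Kcnj11. Dpp6, which speeds Kcnd channels, measured 9.65 and 9.70 against 9.85 and 10.02 (0.26 ± 0.10). Tmem175, a lysosomal potassium channel, measured 7.77 and 7.85 against 8.13 and 8.09 (0.30 ± 0.09). All 3 were separate and higher. Hcn2, a pore of the hyperpolarisation-activated current, was separate and lower at 8.08 and 8.09 against 7.90 and 7.89 (-0.19 ± 0.09). Hcn3, another pore of that current, was separate and higher at 7.34 and 7.44 against 7.61 and 7.59 (0.21 ± 0.09).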

How the data were processed

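The authors deposited log2 expression values for 45101 probe sets on 4 arrays. The submitters' processing notes name RMA, with no version, settings or chip definition in the sources used here. The 64 control probe sets were left out. Threat and control were compared over the remaining 45037 in R 4.3.3 by the lmFit and eBayes functions of limma 3.58.1 (2-sided, Benjamini-Hochberg over all of them), on 2 residual degrees of freedom, by code tested on simulated data. The SEs, intervals and p-values of limma are moderated: the spread of each probe set is drawn towards a value shared over all probe sets. The number of arrays limits the precision. Permuting 2 pools against 2 gives no p under 0.333, so no permutation test was made. If RMA equalised the arrays, a shift shared by most genes is lost.

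Symbols came from the platform annotation, and all 84 stood in RefSeq's GRCm38.p6 gene table. The members, the marker and partner lists and the alternatives were chosen with earlier results of these data known. Pool values are given for up to 14 separate members in each direction above background by size, for members above background with an unadjusted p under 0.05, and for 19 genes of known cortical roles. Kcna5, Kcne4, Kcnj4, Kcnj8, Kcnj13 and Kcnk5 were added after their values were seen. Alternatives were cyclic loess, median centring, an intensity trend, brighter probe sets only and leaving out probe sets whose names end in _x_at or _s_at. Further ones were averaging the probe sets of each gene, the pool number as a block and leaving out each pool.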

Additional observations from a re-analysis of the deposited data

How the results depend on the processing

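No alternative gave a member an adjusted p under 0.05 in limma. The separate counts, 20 higher and 14 lower, came to 17 and 8 among the 63 members brighter than the median probe set, and to 2 and 4 where a log2 difference of at least 0.32 was also asked for. With 1 pool left out, where fewer pools have to be apart, they ranged from 29 to 42 and from 20 to 24: 37 and 23 for control pool 1 omitted, 37 and 24 for control pool 2, 29 and 24 for threat pool 1, and 42 and 20 for threat pool 2. Shares over all genes were not counted under these settings. The median of 0.0425 (0.0152 over all probe sets) was 0.0784 after median centring (0.0511 over all). It was 0.1187 among the brighter members (0.0584 over all brighter probe sets). Among the members above the highest Bacillus value it was 0.0733 (0.0367 over all genes above it). With 1 pool left out it ranged from 0.0329 without threat pool 1 (0.0118 over all probe sets) to 0.0790 without threat pool 2 (0.0185 over all). Differences of single genes were followed for 39 members. The intensity trend and the block change no difference in this design, and none of the 39 was read by an _x_at or _s_at probe set. Their unchanged values under these settings were therefore fixed in advance and are no check of them. The choice of brighter probe sets also moves no difference. It kept 35 of the 39 and left out Kcne1, Kcnk7, Kcnk16 and Kcnq1, which were dimmer than the median probe set. Of 117 under the other 3 settings, 112 kept their sign. The 5 that turned were Kcna2 (-0.0049), Kcnab2 (-0.0030) and Kcnc1 (-0.0432) after cyclic loess, Kcnj3 (0.0239) after median centring and Kcnma1 (-0.0100) by the mean of its probe sets. With 1 pool left out, 11 of 156 turned, in 7 genes: Kcnab2 ranged from -0.0169 to 0.0833, Kcnc1 from -0.0298 to 0.0638, Kcnj16 from -0.1291 to 0.0517, Kcnj3 from -0.0496 to 0.0257, Kcnk1 from -0.1692 to 0.0861, Kcnma1 from -0.0691 to 0.3167 and Kcnmb4 from -0.0209 to 0.2633. The cause was not tested. The labels number the pools 1 and 2 in both groups without saying what a number shares, and the deviations of same-numbered pools correlated at 0.33. With the pool number as a replicate block, 0 members passed the adjusted test and 13 had an unadjusted p under 0.05 in limma, against 8 without it. The block changes the p of every probe set. How many of all genes reached such a p with it was not counted, so the 13 cannot be read against a share.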
